A study of Mus musculus with 6 samples.

Results

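The Wnt system genes described here are 48 protein-coding genes of a table of 45703 genes, taken by gene symbol alone and not by any measured value. They are 19 Wnt ligands, 10 Frizzled receptors, the co-receptors Lrp5 and Lrp6, the receptors Lgr4, Lgr5 and Lgr6, 4 R-spondins, 4 secreted Frizzled-related proteins (Sfrp), 4 Dickkopf proteins (Dkk), Wif1 and Axin2. They were measured by poly-A RNA sequencing in 6 primary cell cultures of dorsal root ganglia, the ganglia beside the spinal cord that hold the sensory neurons and their glia. The donors were wild type C57BL/6 mice, 4 to 6 weeks old. All cultures were untreated, grew for 7 days in 10% serum with EGF and FGF at 10 ng/ml, and form a single group. The culture is therefore a mixed growth of ganglion cells under added growth factors and not the intact ganglion, and each library pooled RNA from 2 dishes. The series calls the cultures biological replicates, but the labels do not say whether cultures shared mice. Permutation p-values therefore refer only to these 6 samples, and chi-square p-values only to the variation of these samples beyond counting noise.

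Wnt proteins are secreted lipid-modified signals that bind Frizzled receptors on the cell surface. When Lrp5 or Lrp6 joins the complex, beta-catenin escapes destruction and acts with TCF and LEF factors on target genes such as Axin2, and other Wnt proteins such as Wnt5a mostly signal without beta-catenin. R-spondins, read by Lgr4, Lgr5 and Lgr6, keep Frizzled receptors on the membrane, whereas Sfrp proteins and Wif1 bind Wnt proteins outside the cell and several Dickkopf proteins block Lrp5 and Lrp6.

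The libraries held between 20070639 and 22968642 counts. Levels are given as CPM, the counts of a gene in every 1000000 counts of its library, and, wherever genes are set against each other, as CPM per kilobase of combined exon length. The glial lineage markers (5 genes, among them Sox10), the neuron markers (7 genes) and the fibroblast markers (6 genes) were all at 1 CPM or more in all 6 cultures. Their summed levels ran from 5028 to 7439 CPM, from 875 to 1834 CPM and from 3338 to 13967 CPM. Culture 5 had the highest fibroblast sum and the lowest glial sum, and culture 1 the lowest fibroblast sum and the highest glial sum.

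Of the 48 genes, 23 reached 1 CPM in all 6 cultures and are called detected, beside 55.8% of all protein-coding genes of the table. A further 16 were low, and 9 had at most 3 counts in every culture, which in the smallest library corresponds to 0.149 CPM. Those 9 were not detectable at this depth. Receptors were the class most often detected: 8 of 10 Frizzled genes, both Lrp genes and all 3 Lgr genes. Only 3 of 19 Wnt ligands were. Summed over its members, the Frizzled class stood at 107 ± 10.9 CPM per kilobase, the Sfrp class at 71.5 ± 27.5, the Lrp pair at 31.4 ± 3.79, the Lgr class at 26.9 ± 3.50 and the Wnt class at 8.59 ± 1.80 (SD, n = 6 for each). The Frizzled sum was between 9.19 and 20.2 times the Wnt sum in a given culture, and the Sfrp sum between 5.85 and 12.7 times.

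**Figure D1:**
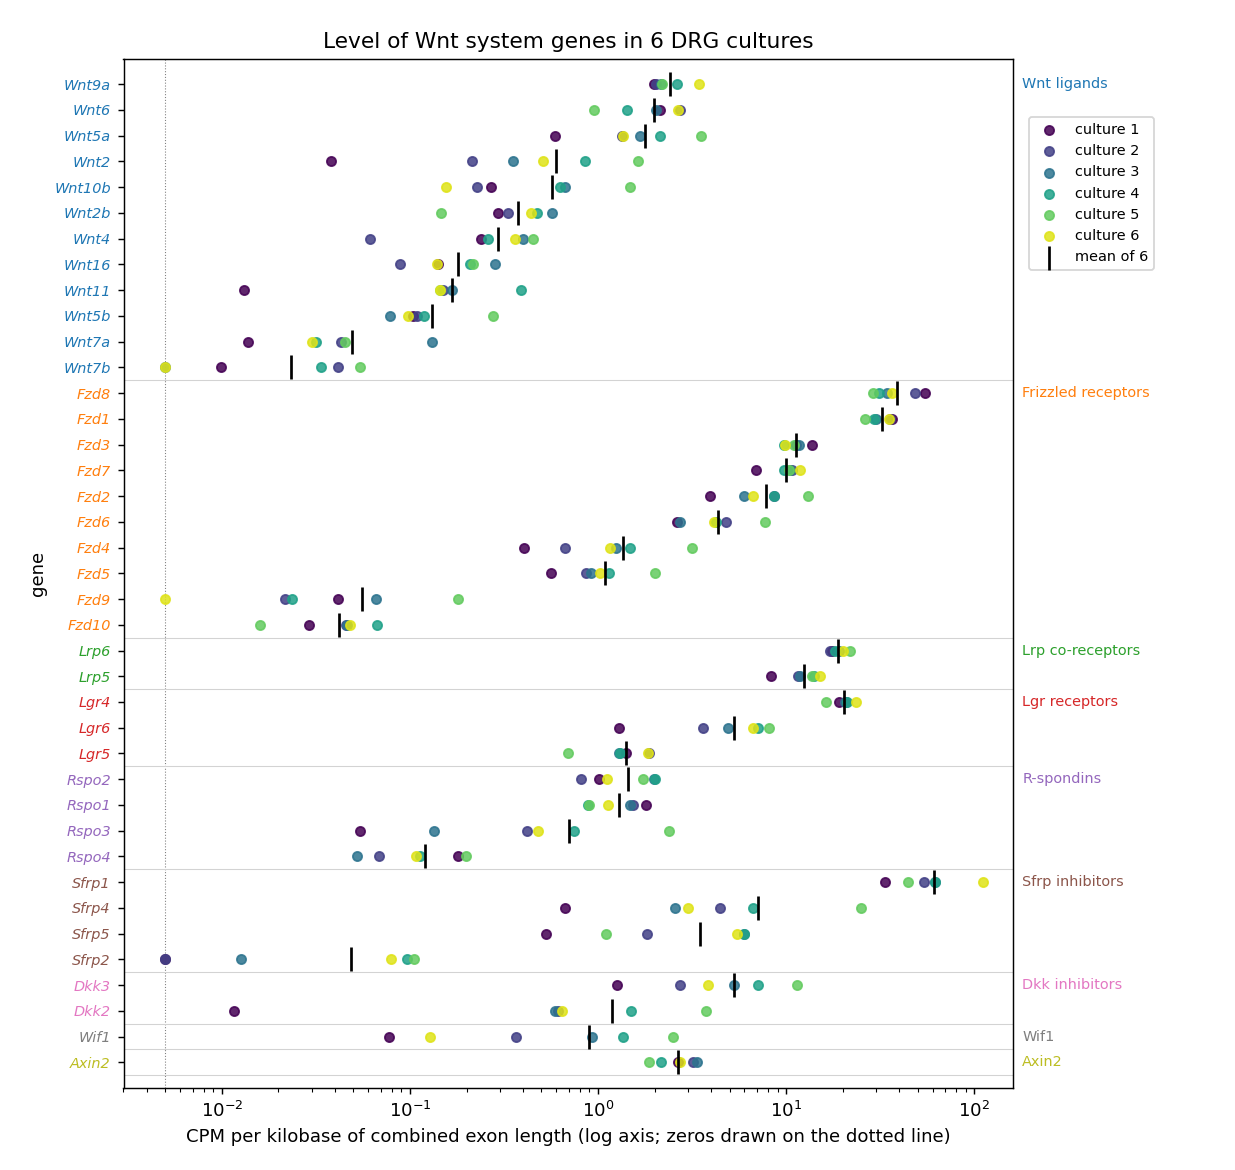
Level of each gene with more than 3 counts in at least 1 culture, in CPM per kilobase of combined exon length on a log axis, 1 point per culture and a bar at the mean of 6. Sfrp1, Fzd8 and Fzd1 have the highest means (60.9, 38.9 and 32.2), and no Wnt ligand has a mean above 2.41.

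Promoter sequences of 3 members are shown because, of the members with a match to the letters searched for, they had the highest mean CPM: Fzd1, Fzd7 and Dkk2. The bases are the 250 before the transcript start used by the promoter table, which for Dkk2 lies inside the span annotated for the gene, 5′ to 3′ on the gene's strand, from RefSeq on GRCm38.p6. They lie at chr5:4758217-4758466 (minus strand) for Fzd1, chr1:59481897-59482146 (plus strand) for Fzd7 and chr3:132085042-132085291 (plus strand) for Dkk2. Capitals mark CTTTGA or CTTTGT on either strand, the letters of the core bound by TCF and LEF factors.
Fzd1: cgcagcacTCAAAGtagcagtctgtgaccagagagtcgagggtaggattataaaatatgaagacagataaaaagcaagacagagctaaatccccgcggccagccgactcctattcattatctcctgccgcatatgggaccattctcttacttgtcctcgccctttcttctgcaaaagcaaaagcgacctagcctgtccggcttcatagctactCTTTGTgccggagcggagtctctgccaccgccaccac
Fzd7: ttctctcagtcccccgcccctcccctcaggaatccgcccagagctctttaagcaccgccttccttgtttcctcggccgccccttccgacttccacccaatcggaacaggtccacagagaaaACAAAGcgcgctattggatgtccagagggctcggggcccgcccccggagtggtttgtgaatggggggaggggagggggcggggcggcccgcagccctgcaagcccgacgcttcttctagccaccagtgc
Dkk2: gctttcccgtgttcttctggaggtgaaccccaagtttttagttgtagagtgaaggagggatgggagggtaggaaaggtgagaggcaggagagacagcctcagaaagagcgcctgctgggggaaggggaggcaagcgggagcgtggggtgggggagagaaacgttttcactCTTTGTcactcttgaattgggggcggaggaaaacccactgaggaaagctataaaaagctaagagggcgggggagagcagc
Promoters from 250 bases before to 50 after the start were present for 31 of the 48 members. Either letter string, on either strand, occurred in 8 of these 31 members and in 31.2% of all 32851 promoters of that length. CTTTGA alone occurred in 16.0% and CTTTGT alone in 18.7% of all promoters. Counted from the start, Fzd1 had matches at positions -242 (opposite strand) and -37 (gene strand), Fzd7 at -129 (opposite strand) and Dkk2 at -80 (gene strand). These are matches of letters and not measured binding sites.

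The 3 detected Wnt ligands were Wnt9a, Wnt6 and Wnt5a. Together they took 72.9% ± 8.90 of the summed Wnt CPM per kilobase (SD, n = 6), with 59.8% in culture 5 as the lowest share and 82.3% in culture 2 as the highest. Wnt9a (chromosome 11, 59306849 to 59333552), a ligand with roles in skeletal and joint development, had 6.71, 7.40 and 11.7 CPM as its lowest, median and highest values. Wnt6 (chromosome 1, 74754342 to 74785322), a ligand known from neural crest induction, had 2.15, 4.75 and 6.19 CPM. Its lowest value was that of culture 5. Wnt5a (chromosome 14, 28504543 to 28527448), the best studied ligand of beta-catenin-independent signalling, had 5.01, 11.4, 14.2, 18.1, 30.1 and 11.5 CPM in cultures 1 to 6. Culture 5 was highest and culture 1 lowest. Per kilobase the 3 ligands stood at 2.41 ± 0.554, 1.99 ± 0.695 and 1.77 ± 1.00 CPM (SD, n = 6), each above the next in 4 of 6 cultures, so their order was within the spread between cultures.

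Of the low ligands, Wnt2 (chromosome 6, 17985474 to 18032772), a ligand expressed in mesenchyme, had 5, 27, 44.11, 98, 196 and 61 counts in cultures 1 to 6. Wnt10b (chromosome 15, 98770712 to 98778206), known from bone and fat formation, had 21, 17, 49, 43, 105 and 11 counts. Both were highest in culture 5, and both fell below 1 CPM in at least 1 culture. Wnt2b had 24, 26, 44, 34, 11 and 33 counts, lowest in culture 5. Wnt2b, Wnt4, Wnt16, Wnt11, Wnt5b, Wnt7a and Wnt7b had means from 0.102 CPM for Wnt7b to 1.34 CPM for Wnt2b. Wnt2b overlaps St7l on the other strand over 4524 bases and Wnt5b overlaps Fbxl14 over 4219 bases. The libraries were stranded, but the strand setting of the counting is not given in the sources used here, so reads of these ligands and of their neighbours may not be told apart.

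The remaining 7 ligands were at or under 3 counts in every culture: Wnt1, Wnt3, Wnt3a, Wnt8a, Wnt8b, Wnt9b and Wnt10a. Of these, Wnt1, Wnt3a, Wnt8a, Wnt8b and Wnt9b had 0 counts in all 6 libraries. Several Wnt genes are neighbours in the genome, and detection differed within such pairs. Wnt9a at 8.18 ± 1.88 CPM lies 16097 bases from Wnt3a, which had 0 counts. Wnt6 at 4.52 ± 1.58 CPM lies 6696 bases from Wnt10a on the same strand, and Wnt10a had at most 3 counts in any library. Wnt10b at 1.94 ± 1.67 CPM lies 11650 bases from Wnt1, which had 0 counts (SD, n = 6 for each mean). In the fourth pair, Wnt3 and Wnt9b, both genes were at or under 3 counts.

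Frizzled transcripts were led by Fzd8 and Fzd1, which together took 66.0% ± 7.48 of the summed Frizzled CPM per kilobase (SD, n = 6). Fzd8 (chromosome 18, 9212856 to 9216201) had 183, 161, 115, 104, 96.8 and 122 CPM in cultures 1 to 6. Fzd1 (chromosome 5, 4753839 to 4758216) had 161, 156, 131, 128, 115 and 155 CPM. Both genes encode receptors that can act with Lrp6, and both had their highest value in culture 1 and their lowest in culture 5. Per kilobase, Fzd8 at 38.9 ± 10.2 CPM exceeded Fzd1 at 32.2 ± 4.27 CPM in 6 of 6 cultures (SD, n = 6), although their ranges over cultures overlapped. Per kilobase, the 8 other Frizzled genes stayed under the lowest value of Fzd1 in all 6 cultures.

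Fzd3 and Fzd7 followed per kilobase. By CPM alone Fzd3 had the highest mean of the class, 143 CPM, beside 141 for Fzd1 and 130 for Fzd8. Its place per kilobase rests on a combined exon length of 12742 bases. Fzd3 (chromosome 14, 65192441 to 65262463), the Frizzled best known for axon guidance and planar polarity, had 125, 142 and 174 CPM as lowest, median and highest values. Fzd7 (chromosome 1, 59482147 to 59486955) had 33.2, 50.1 and 57.1 CPM, with culture 1 lowest. At 11.2 ± 1.41 and 10.0 ± 1.68 CPM per kilobase (SD, n = 6), Fzd3 was above Fzd7 in 5 of 6 cultures. The pair was not separated beyond its spread.

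Fzd2, Fzd6, Fzd4 and Fzd5 were lower still. Fzd2 (chromosome 11, 102604431 to 102608058) had 14.2, 27.7 and 47.1 CPM as lowest, median and highest values. Fzd6 (chromosome 15, 39006149 to 39038192) had 12.1, 19.2 and 35.5 CPM. Fzd4 (chromosome 7, 89404366 to 89410110), also the receptor for the non-Wnt ligand norrin in vessels, had 1.48, 4.41 and 11.6 CPM. Fzd5 (chromosome 1, 64730558 to 64737750) had 3.88, 6.75 and 13.9 CPM. In all 4 genes culture 1 was lowest and culture 5 highest. Their joint share of the Frizzled sum was 6.28% in culture 1 and 25.2% in culture 5, while that of Fzd8 and Fzd1 was 76.4% in culture 1 and 53.7% in culture 5. Counts of Fzd2 were fractional in 3 cultures, and how reads with several matches were counted is not given in the sources used here. Fzd4 overlaps Tmem135, which averaged 747 counts against 105 for Fzd4, over 338 bases on the other strand.

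**Figure D2:**
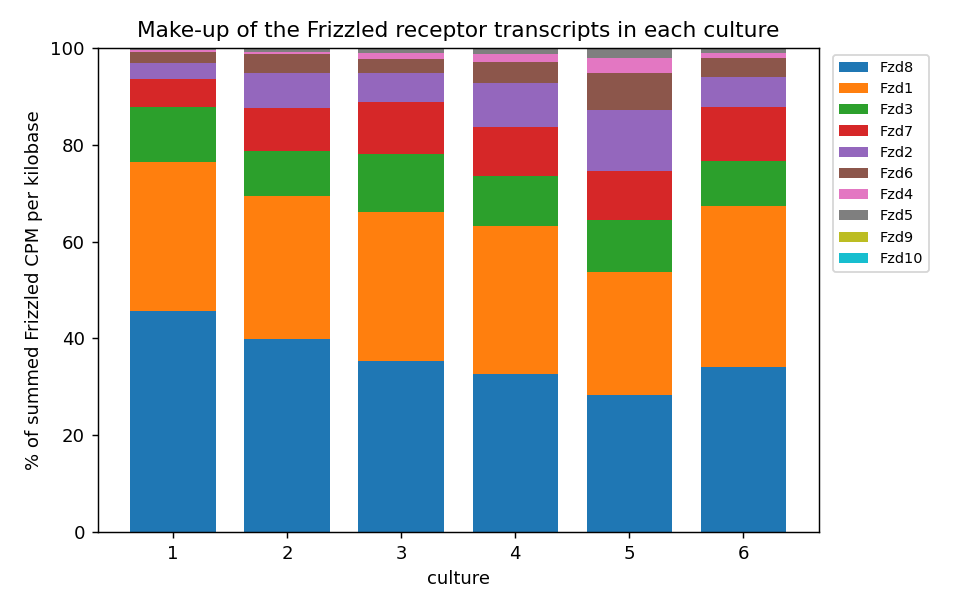
Share of the summed Frizzled CPM per kilobase taken by each Frizzled gene, in percent, 1 bar per culture. The joint share of Fzd8 and Fzd1 runs from 53.7% in culture 5 to 76.4% in culture 1.

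The last Frizzled genes, Fzd9 and Fzd10, had at most 8 and 4 counts in any library. Of the 10 Frizzled genes, 6 have no intron, since their span in the genome equals their exon length: Fzd1, Fzd2, Fzd7, Fzd8, Fzd9 and Fzd10. No other member lacks an intron. The intronless genes included both the highest and the lowest of the class.

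Lrp6 and Lrp5, the co-receptors of beta-catenin signalling, were both present throughout. Lrp6 (chromosome 6, 134446476 to 134566913) had 160, 174 and 204 CPM as lowest, median and highest values. Lrp5 (chromosome 19, 3584825 to 3686585) had 42.9, 66.3 and 78.6 CPM. Per kilobase, Lrp6 at 18.9 ± 1.75 CPM stood above Lrp5 at 12.4 ± 2.44 CPM (SD, n = 6), and no value of the first overlapped a value of the second. Lrp6 was the steadiest of the members that could be tested for spread, with a highest value 1.23 times its lowest, against a median of 1.36 times over all 14998 genes kept for that test.

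Among the R-spondin receptors Lgr4 led, with 82.8, 105 and 119 CPM as lowest, median and highest values. Lgr4 (chromosome 2, 109917647 to 110014257) is the widely expressed member of this group. Lgr6 (chromosome 1, 134983300 to 135105374) had 8.88, 25.1, 33.8, 48.7, 56.1 and 46.1 CPM in cultures 1 to 6, with culture 1 far under the rest. Lgr5 (chromosome 10, 115450314 to 115587780), known as a stem cell marker and a Wnt target, had 6.66, 8.74, 6.05, 6.18, 3.25 and 8.65 CPM. Its lowest value was in culture 5, where Lgr6 was highest. Lgr4 took 75.6% ± 7.65 of the summed Lgr CPM per kilobase, Lgr6 19.2% ± 8.98 and Lgr5 5.21% ± 1.56 (SD, n = 6). Lgr5 overlaps A930009A15Rik, which averaged 26 counts, on the other strand.

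R-spondin ligands were scarce beside these receptors. Rspo2 (chromosome 15, 43020788 to 43171594) had 3.37, 5.93 and 8.27 CPM as lowest, median and highest values, and Rspo1 (chromosome 4, 124986401 to 125009102) had 1.64, 2.44 and 3.35 CPM. Both were detected, at 1.44 ± 0.525 and 1.29 ± 0.375 CPM per kilobase (SD, n = 6), and each was above the other in 3 cultures. Rspo3, prominent in endothelium and mesenchyme, had 3, 22, 7, 36, 120 and 24 counts in cultures 1 to 6 and was low by the rule used here. Rspo4 had between 3 and 11 counts.

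Among the members, the secreted inhibitors were led by Sfrp1. Outside the symbol rule, Sostdc1 came near it, with a mean of 49.2 CPM per kilobase. Sfrp1 (chromosome 8, 23411383 to 23449632), a Wnt-binding protein, had 150, 243, 276, 276, 198 and 497 CPM in cultures 1 to 6 and the highest mean of all members per kilobase, 60.9 ± 26.7 CPM (SD, n = 6). Culture 6 stood well above the others and culture 1 was lowest. Sfrp1 took 85.4% ± 12.1 of the summed CPM per kilobase of the Sfrp members. That sum leaves out Frzb, which encodes the Sfrp3 protein and had a mean of 15.15 CPM per kilobase. Sfrp4 (chromosome 13, 19623175 to 19632825) had 1.18, 7.83, 4.52, 11.8, 44.2 and 5.31 CPM. Its value in culture 5 was far above the rest, and its share of the Sfrp sum there was 35.6%. Sfrp5 (chromosome 19, 42197971 to 42202252) had 1.00, 3.46, 11.4, 11.3, 2.10 and 10.4 CPM. It was high in cultures 3, 4 and 6 and low in cultures 1 and 5. Cultures 3, 4 and 6 were also the highest of Sfrp1 and cultures 1 and 5 its lowest, whereas Sfrp4 was highest in culture 5. Sfrp2 had at most 8 counts in any library.

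Dkk3 (chromosome 7, 112116019 to 112159482), a divergent Dickkopf family protein, was the only detected Dkk gene. It had 4.53, 9.75, 18.9, 25.6, 41.0 and 13.7 CPM in cultures 1 to 6. Dkk2, an inhibitor or weak activator depending on context, had 1, 51, 48, 113, 297 and 51 counts. Both were lowest in culture 1 and highest in culture 5. Dkk1, the classical inhibitor of Lrp5 and Lrp6, and Dkk4 had at most 3 counts in every culture. Wif1 (chromosome 10, 121034004 to 121100642) had 0.174, 0.820, 2.08, 3.04, 5.64 and 0.287 CPM and was low by the rule, with culture 5 again highest.

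Axin2 (chromosome 11, 108917828 to 108950783), the most widely used readout of beta-catenin signalling, was detected in all cultures. It had 14.5, 17.5, 18.3, 11.9, 10.2 and 14.9 CPM in cultures 1 to 6, or 2.66 ± 0.572 CPM per kilobase (SD, n = 6). Culture 5 was lowest, and cultures 2 and 3 were highest.

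Related members were compared within each culture by the difference of log2(CPM per kilobase + 0.1), in 25 pairs named by family relation. The pairs Wnt3 with Wnt3a and Wnt8a with Wnt8b were at or under 3 counts throughout and were not tested. In 14 of the 23 tested pairs the same gene was higher in all 6 cultures. They include pairs with 1 gene at or near 0: Wnt9b had 0 counts, Wnt10a at most 3 and Sfrp2 at most 8. Each of the 14 pairs had an exact sign-flip permutation p of 0.0312 (two-sided), the smallest that 6 cultures allow. After Benjamini-Hochberg adjustment over 23 pairs each was 0.0513, so 0 pairs passed 0.05. As each p was the smallest possible, the adjusted value reflects how many pairs reached it and not the size of their gaps. Lrp6 exceeded Lrp5 by 0.63 ± 0.251 on the log2 scale, Fzd1 exceeded Fzd7 by 1.68 ± 0.371 and Fzd2 by 2.12 ± 0.727, and Fzd3 exceeded Fzd6 by 1.43 ± 0.666 (SD, n = 6). Larger gaps separated Fzd8 from Fzd5 (Fzd5 minus Fzd8, -5.09 ± 0.878), Lgr4 from Lgr5 (3.81 ± 0.334), Sfrp1 from Sfrp5 (4.46 ± 0.983) and Wnt5a from Wnt5b (2.89 ± 0.604). Among the 9 pairs with a change of order were Fzd2 with Fzd7, Lgr5 with Lgr6, Rspo1 with Rspo2 and Wnt2 with Wnt2b. Fzd2 lay below Fzd7 in 5 cultures but above it in culture 5 (exact permutation p = 0.0938, adjusted 0.120). Lgr5 lay below Lgr6 in 5 cultures but above it in culture 1 (exact permutation p = 0.0625, adjusted 0.0846).

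**Figure D3:**
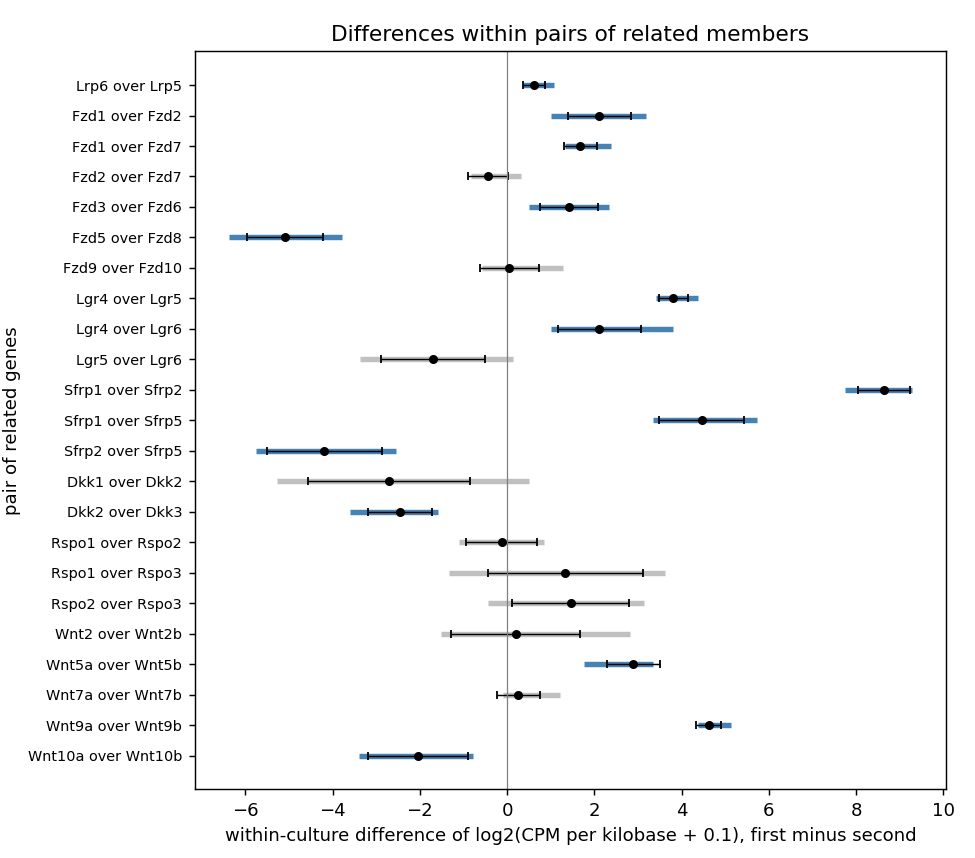
Within-culture difference of log2(CPM per kilobase + 0.1) for 23 pairs of related members, first gene minus second; the thick line spans the 6 cultures, the point is the mean and the thin bar is ± 1 SD. Blue lines, which do not cross 0, mark the 14 pairs ordered alike in all 6 cultures.

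The next question was how far the members differed between cultures. Counts high enough in all 6 cultures for this test were found for 25 of the 48 members. The 23 others include Dkk2, Wnt2 and Wnt11, which the filter kept once culture 1 was left out, and Wnt4, which it kept without culture 2. Rspo3 and Wif1 had low counts in more than 1 culture. All 25 varied beyond counting noise (chi-square test over the 6 cultures on counts scaled by edgeR's TMM factors, Benjamini-Hochberg adjusted p under 0.05). The same test called 76.3% of all 14998 genes, so variation beyond counting noise was common throughout the table. The size of the spread was described next. In 15 of the 25 the highest culture was at least 2 times the lowest on the log2(CPM + 0.5) scale, beside 15.2% of all genes tested. The median highest-to-lowest ratio was 2.54 for the 25 members and 1.36 for all genes tested. Against genes of similar abundance, 12 of the 25 had a standard deviation at or above the percentile of 90 and 24 of 25 at or above that of 50, Lrp6 being the exception. The largest ratios were those of Sfrp4 at 26.3, Dkk3 at 8.11, Sfrp5 at 7.76, Fzd4 at 6.02, Lgr6 at 5.93 and Wnt5a at 5.47. The size of several of these fell when 1 library was left out, but each stayed above 2-fold. Without culture 5 the ratio was 7.21 for Sfrp4, 5.10 for Dkk3, 2.98 for Fzd4 and 3.33 for Wnt5a. Without culture 1 it was 8.97 for Sfrp4, 3.91 for Dkk3, 4.55 for Sfrp5, 3.96 for Fzd4, 2.13 for Lgr6 and 2.501 for Wnt5a. Fzd5, Fzd6, Lgr5, Wnt6 and Wnt2b were under 2-fold without culture 5, Sfrp1 without culture 6 and Rspo2 without culture 2. Axin2 had a ratio of 1.74 and Fzd1 of 1.43. Leaving out culture 5 lowered the number past 2-fold from 15 to 10, beside 9.45% of all genes, and leaving out cultures 1 and 5 together, an alternative added after the values were seen, lowered it to 6 of 25, beside 5.77% of all genes.

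Cultures 1 and 5 were the usual extremes. Of the 25 members, 13 had their lowest CPM in culture 1 and 10 their highest in culture 5. Over all genes tested, 23.8% had their lowest value in culture 1 and 29.2% their highest in culture 5.

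The members were then set against marker scores of the cultures, each the mean log2(CPM + 0.5) of a marker list after TMM scaling. With the fibroblast score, Pearson's r had an unadjusted exact permutation p under 0.05 for 7 members with a positive r, beside 11.6% of all genes, and for 4 members with a negative r, beside 8.39% of all genes. With the log2 of the summed CPM of the list as the score, 7 of 25 members in place of 11 had such a p in either direction, beside 19.72% and 19.96% of all genes. After adjustment over all 14992 genes tested 0 members passed, as did 0% of all genes. With 720 pairings the smallest p was 0.00139, and a call would have needed at least 2.78% of all genes to reach it. The scores and genes come from the same 6 libraries. In bulk RNA of a mixed culture, fewer cells of a type and less RNA per cell cannot be told apart.

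Wnt5a followed the fibroblast score most closely, with r = 0.98 (exact permutation p = 0.00139, adjusted 0.129). After TMM scaling its cultures stood in the same order as the score, with a Spearman's rho of 1.00 (p = 0.00278 by exact permutation, adjusted 0.203). Before scaling, cultures 2 and 6 were nearly equal at 11.43 and 11.52 CPM and stood in the opposite order to the score. Without cultures 1 and 5, the libraries farthest from the median score, r was 0.94. Sfrp4 had r = 0.97 (exact permutation p = 0.00556, adjusted 0.130), or 0.83 without those libraries, and a rho of 0.83 (p = 0.0583 by exact permutation, adjusted 0.352). Dkk3 had r = 0.95 (exact permutation p = 0.00972, adjusted 0.149), or 0.76 without them, and a rho of 0.94 (p = 0.0167 by exact permutation, adjusted 0.240).

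The other 4 members with a positive r were Fzd5, Fzd4, Fzd2 and Lgr6. Fzd5 had r = 0.95 (exact permutation p = 0.00694, adjusted 0.135) and a rho of 0.83 (p = 0.0583 by exact permutation, adjusted 0.352). Fzd4 had r = 0.93 (exact permutation p = 0.0125, adjusted 0.157) and a rho of 0.94 (p = 0.0167 by exact permutation, adjusted 0.240). Fzd2 had r = 0.92 (exact permutation p = 0.0194, adjusted 0.177) and a rho of 0.71 (p = 0.136 by exact permutation, adjusted 0.469). Lgr6 had r = 0.83 (exact permutation p = 0.0431, adjusted 0.232) and a rho of 0.83 (p = 0.0583 by exact permutation, adjusted 0.352). Without cultures 1 and 5, r was 0.66 for Fzd5, 0.54 for Fzd4, 0.50 for Fzd2 and 0.43 for Lgr6, so these relations rest in large part on those libraries.

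On the negative side were Fzd1, Fzd8, Rspo1 and Wnt6. Fzd1 had r = -0.87 (exact permutation p = 0.00833, adjusted 0.141) and Fzd8 r = -0.85 (exact permutation p = 0.0347, adjusted 0.214), and both had a rho of -0.94 (p = 0.0167 by exact permutation, adjusted 0.240). Without cultures 1 and 5 their r was -0.67 and -0.54. Rspo1 had r = -0.87 (exact permutation p = 0.0208, adjusted 0.181) and Wnt6 r = -0.81 (exact permutation p = 0.0431, adjusted 0.232), and both had a rho of -0.77 (p = 0.103 by exact permutation, adjusted 0.436). Without those libraries their r was -0.72 and -0.90. Sfrp1, the member with the highest mean level, had r = 0.05 (exact permutation p = 0.940, adjusted 0.974), with a rho of 0.09 (p = 0.919 by exact permutation, adjusted 0.969), and was highest in culture 6, where the score was second lowest.

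**Figure D4:**
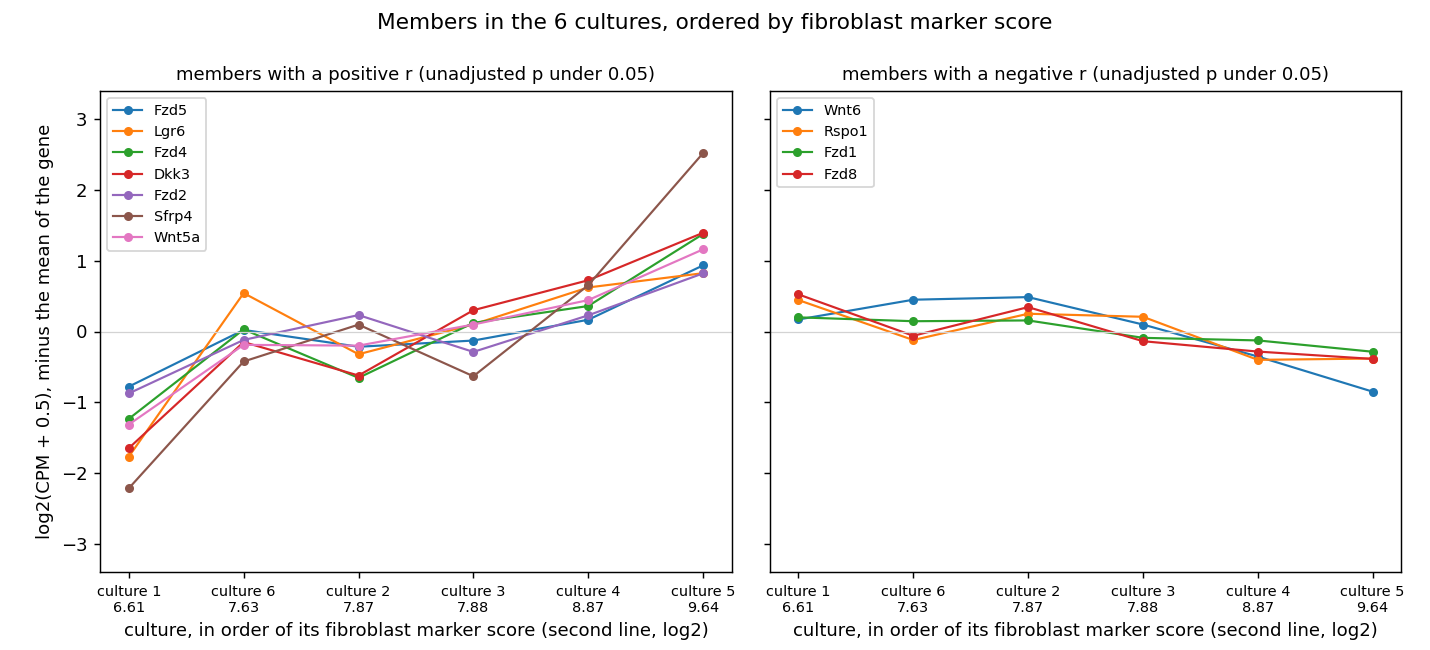
Level of 11 members in each culture as log2(CPM + 0.5), without TMM scaling, minus the gene's own mean. Cultures are in order of their fibroblast marker score, which is printed under each culture. Left, the 7 members with a positive r, where culture 1 is lowest throughout; right, the 4 members with a negative r, which span a narrower range.

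Summed markers of 3 other cell types were also lowest in culture 1 and highest in culture 5. The 5 mural markers summed to 55.0 CPM in culture 1 and 1046 CPM in culture 5, the 5 endothelial markers to 8.01 and 117 CPM, and the 5 macrophage markers to 9.67 and 97.98 CPM. Not every single marker had these extremes. Pecam1 and Myh11 were lowest in culture 2, Kdr in culture 3 and Tie1 in culture 6. Myh11 was highest in culture 6, and Des and Aif1 in culture 3. The other markers of these lists were lowest in culture 1 and highest in culture 5. No marker of these lists was at 0 in any culture, but 2 of the 5 endothelial, 4 of the 5 mural and 3 of the 5 macrophage genes were at 1 CPM or more throughout. The 3 perineurial markers did not move together: Itgb4 was lowest in culture 5 at 299 CPM, while Cldn1 and Slc2a1 were highest there at 19.4 and 69.6 CPM. The part of these cell types in the members' values was not tested.

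With the glial lineage score, which itself had r = -0.88 with the fibroblast score (exact permutation p = 0.0236) and rho = -0.83 (exact permutation p = 0.0583) over the 6 cultures, 6 members had a positive r at an unadjusted p under 0.05, beside 9.26% of all genes, and 5 a negative one, beside 9.75%. The adjusted exact permutation test called 0 members and 0% of all genes. The 6 were Wnt6, Fzd1, Lgr5, Fzd8, Axin2 and Rspo1, and the 5 were Fzd4, Wnt10b, Fzd5, Dkk3 and Wnt5a, with r from -0.93 for Fzd4 to -0.85 for Wnt5a. Of these 11, 8 were also among the 11 of the fibroblast score, and the scores come from the same libraries. Fzd1 had r = 0.93 (exact permutation p = 0.00278, adjusted 0.164) and Wnt6 r = 0.95 (exact permutation p = 0.00694, adjusted 0.171), both with a rho of 0.94 (p = 0.0167 by exact permutation, adjusted 0.242). Without cultures 2 and 5, the farthest from the median of this score, r was 0.90 and 0.80. Lgr5 had r = 0.91 (exact permutation p = 0.0208, adjusted 0.210) and a rho of 0.89 (p = 0.0333 by exact permutation, adjusted 0.291). Axin2 had r = 0.85 (exact permutation p = 0.0292, adjusted 0.227) and a rho of 0.77 (p = 0.103 by exact permutation, adjusted 0.456). Without cultures 2 and 5, r was 0.46 for Lgr5 and 0.47 for Axin2, so for both the relation rests largely on those libraries. With the neuron score 0 members had a positive r at an unadjusted p under 0.05, beside 5.68% of all genes, and 1, Fzd6, a negative one, beside 3.36% of all genes. Fzd6 had r = -0.87 (exact permutation p = 0.0264, adjusted 0.453), or -0.80 without cultures 2 and 5, and a rho of -0.89 (p = 0.0333 by exact permutation, adjusted 0.512). The adjusted test called 0 members and 0% of all genes there too.

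Around the members, 50 further genes of the pathway were examined in 8 lists. Of these, 44 were detected, beside 55.8% of all protein-coding genes, and 4 had at most 3 counts in every culture. Of the 44, 42 varied beyond counting noise, beside 76.3% of all genes tested, and 12 had a range of at least 2-fold, beside 15.2%. All 9 cytoplasmic genes of the beta-catenin machinery were detected and varied beyond counting noise, and 0 of the 9 had a 2-fold range. Ctnnb1, which encodes beta-catenin, was highest at 205 ± 16.4 CPM per kilobase, and the scaffold gene Dvl2 was lowest at 8.19 ± 1.04. Among the nuclear genes Pygo2, a beta-catenin co-factor, was highest at 15.8 ± 1.05 CPM per kilobase and Pygo1 lowest of those detected at 0.954 ± 0.223 (SD, n = 6). Tcf7, 1 of the 4 TCF and LEF genes, was lowest in culture 5 (15.0 CPM) and highest in culture 6 (32.1 CPM), and Lef1 was low, with 6 to 49 counts.

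Wls, the carrier that brings Wnt proteins to the surface, was detected at 21.9 ± 7.91 CPM per kilobase, and Porcn, the enzyme that attaches their lipid, at 4.42 ± 0.463 (SD, n = 6). Wls ranged from 86.9 CPM in culture 1 to 215 CPM in culture 5, whereas Notum, which removes the lipid, had at most 7 counts. Of 8 co-receptor genes 7 were detected. Adgra2, the Wnt7 co-receptor, was highest at 34.0 ± 5.54 CPM per kilobase and Ror1 lowest at 0.655 ± 0.569. Ror2, Ror1 and Ptk7, receptors with a kinase-like domain, had the widest ranges of this list, at 15.7, 10.8 and 5.44 times, whereas Ryk, a Wnt receptor with such a domain too, had the narrowest of the 7, at 1.44 times. Ror2 had 1.22, 6.38, 5.72, 11.96, 27.0 and 4.97 CPM in cultures 1 to 6. Ror1 had 1.26 CPM in culture 1 and 18.8 CPM in culture 5, and Ptk7 had 4.57 and 27.6 CPM. In all 3 genes these were the lowest and the highest cultures. Kremen2 was not detectable. Of the membrane ligases that remove Frizzled receptors, Znrf3 was detected at 1.58 ± 0.127 CPM per kilobase and did not pass the test for variation beyond counting noise, while Rnf43 had at most 3 counts.

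Of 5 secreted inhibitors outside the symbol rule 4 were detected, and these 4 had a 2-fold range, as did 15.2% of all genes tested. Sostdc1, an inhibitor of Wnt and BMP signals, was highest at 49.2 ± 15.7 CPM per kilobase, ranging from 43.5 CPM in culture 5 to 113 CPM in culture 6. Frzb, which encodes the Sfrp3 protein, had 35.1, 23.5, 50.6, 46.5, 93.1 and 16.7 CPM in cultures 1 to 6. Apcdd1 ranged from 9.03 CPM in culture 5 to 21.3 CPM in culture 6, Draxin was lowest of the list at 0.373 ± 0.172 CPM per kilobase, and Sost had 0 counts. In the planar polarity list all 9 genes were detected, from Prickle1 at 0.550 ± 0.339 to Daam2 at 25.3 ± 4.76 CPM per kilobase. Prickle1 was highest in culture 5 at 12.5 CPM, and Celsr1 was lowest there at 28.7 CPM, against 91.6 CPM in culture 2.

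Feedback and target genes other than Axin2 and Lgr5 spanned a wide range of levels. Ccnd1, a cell cycle gene with many inputs, was highest at 202 ± 25.5 CPM per kilobase, followed by the feedback inhibitor Nkd2 at 74.4 ± 10.2 (SD, n = 6). Its relative Nkd1 was the lowest detected gene of the list at 0.955 ± 0.538 CPM per kilobase, with 8.58 CPM in culture 1 as its highest value and 1.63 CPM in culture 6 as its lowest. Sp5, a target used as a readout in embryonic cells, had 0 counts in all cultures. Of the 12 genes in this list 8 were detected, and 3 of these 8 had a 2-fold range, beside 15.2% of all genes tested: Nkd1, Tcf7 and Apcdd1.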

How the data were processed

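The authors deposited 1 table of estimated counts per gene, described as raw and not scaled, with fractional values in 13.4% to 14.7% of its rows per library. Per the submitters' processing notes, bcl2fastq 2.20.0.422, cutadapt 2.5, STAR 2.7.2b, featureCounts 1.6.4 and the build GRCm38.p6 were used; strand setting and treatment of reads with several matches are not given in the sources used here. Per the file headers, combined exon length is in bases, and 0 further columns of samples were present. All 48 members matched RefSeq on GRCm38.p6 with identical start and end. Counts were fractional in at least 1 culture for 7 members.

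CPM used library totals. Counts were rounded for the filter and TMM factors of edgeR 4.0.16, for the size factors of DESeq2 1.42.0 (R 4.3.3) and for the chi-square test. Other steps ran in Python 3.11.15. The chi-square, relation and sign-flip procedures were tested on simulated data. No contrast between conditions exists in 1 group, so edgeR's quasi-likelihood test was not run. Members, marker lists, pairs and pathway lists were chosen with earlier results of these data known. The text describes every member by class, giving values by culture, or the lowest, median and highest, for the 3 highest detected members of a class, Axin2, Wif1, Lrp genes, detected Lgr and R-spondin genes and detected members with a 2-fold range; of other pathway genes it names the highest and lowest detected of each list, those with a 2-fold range and those not detected.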

Additional observations from a re-analysis of the deposited data

Results flagged for a closer look

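For each of the 23 detected members, the distance from the highest or lowest culture to the one next to it was taken as a share of the spread of all 6 values and compared with the limit of Dixon's outlier test at the 95% level. The limit was passed in 2 genes, where chance gives 1.15 of 23. Sfrp1 stood at 497 CPM in culture 6, with 276 CPM as the next value and 150 CPM as the lowest, a ratio of 0.636. Sfrp4 stood at 44.2 CPM in culture 5, with 11.8 CPM as the next value and 1.18 CPM as the lowest, a ratio of 0.754.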

How the results depend on the processing

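The number of members detected was 23 and became 30 when 3 cultures sufficed and 25 with at least 10 counts in all cultures. The share of all genes detected under these looser rules was not computed, so whether the rise is particular to the members is not known. Without the filter on low counts, 33 of 42 members varied beyond counting noise (50.2% of all genes) and 21 of 42 had a 2-fold range (12.9% of all genes). The number with a 2-fold range ran from 10 of 25 (without culture 5) to 17 of 28 (without culture 1) with 1 culture left out and was 6 with cultures 1 and 5 left out together, which also lowered the share of all genes to 5.77%. No pair of related genes passed adjustment per kilobase, whereas 18 of 23 passed without length scaling, where gene length enters the difference; with 1 culture left out the smallest p is 0.0625, so the test was not run, and 14 to 17 pairs kept 1 order. With the list score taken as the log2 of summed CPM, members at an unadjusted p under 0.05 numbered 7 in place of 11 of 25 for the fibroblast score (19.72% and 19.96% of all genes) and 2 in place of 1 for the neuron score (11.6% and 9.04% of all genes); the cause was not tested. No adjusted call arose in any relation under the 3 alternatives. Means of the 23 detected members moved by less than 1 SD with TMM factors and with DESeq2 size factors. Leaving out 1 of 6 values cannot move a mean by the SD of all 6, so this rule cannot judge single cultures. Without culture 5 the mean of Sfrp4, whose SD exceeds its mean, went from 7.09 to 3.48 CPM per kilobase. No paired analysis was possible because all samples form 1 group. Depth limits what can be said of the 9 members at or under 3 counts.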
